A study of Mus musculus with 480 samples.

Results

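Solute carriers are membrane proteins that move sugars, amino acids, ions, metals, vitamins, nucleotides and organic acids across the plasma membrane and the membranes of organelles. The genes described here are the protein-coding genes whose symbol starts with Slc, without Slc34a2, that were selected on their level in 4 types of single mouse lung epithelial cell. The level was the summed reads of a type, scaled to the same total in each type as CPM (reads of the gene per 1000000 reads), and 20 CPM or more in any of the 4 types was needed. They number 62 that favour 1 type and 85 shared by several, together 38.3% of the 384 such Slc genes, out of 53379 genes in the table. Since these levels chose the members, the levels in the 4 types are given as a description and carry no test.

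The study sorted 480 single lung epithelial cells by flow cytometry, 160 from each of 3 reporter lines. Bronchioalveolar stem cells (BASCs) came from BASCs-Tracer mice, 85 cells on plate 1 and 53 on plate 2. These mice carry Sftpc-DreER and Scgba1a1-CreER with the reporter R26-RSR-LSL-tdtomato, which opens where Dre, under Sftpc, and Cre, under Scgb1a1, have both acted. Alveolar type 2 (AT2) cells came from Sftpc-TD mice (Sftpc-DreER and R26-RSR-tdtomato), 60 cells on plate 4 and 89 on plate 5. Ciliated cells (24) and club cells (97) came from Scgb1a1-TD mice (Scgba1a1-CreER and R26-tdtomato), and so share a line and 3 plates. Smaller groups of the same lines, used for comparison, were 38 BASCs of Scgb1a1-TD, 11 BASCs of Sftpc-TD, 15 club cells of BASCs-Tracer and 6 AT2 cells of BASCs-Tracer. All lines carry an inducible recombinase (ER) and a tdTomato reporter, and sub-type names are those of the labels. No label names an animal, an age or a strain, so each line counted as 1 sample and no test between types was possible. BASCs and AT2 cells share no plate, so cell type, line and plate cannot be told apart between these 2. Of the 4 types, only ciliated and club cells share a line. In every other contrast between the 4 types, cell type and line cannot be told apart. A pattern shared by ciliated and club cells sets Scgb1a1-TD against the other lines.

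Summed depth was 106587371 reads in BASCs, 192171985 in AT2 cells, 22025351 in ciliated cells and 97171266 in club cells. The labelled types carried their own markers: all 10 ciliated markers reached 20 CPM in ciliated cells, all 9 club markers in club cells, and all 9 AT2 markers in both BASCs and AT2 cells. That level alone does not separate the types: 8 AT2 markers reached it in club cells and 6 in ciliated cells. Of the club markers, 8 reached it in ciliated cells and 5 in BASCs. AT2 markers summed to 253600 CPM in BASCs, 255500 CPM in AT2 cells, 2822 CPM in ciliated cells and 30960 CPM in club cells. The club markers summed to 14990 CPM in BASCs, 1400 CPM in AT2 cells, 28740 CPM in ciliated cells and 323100 CPM in club cells. Pan-leukocyte markers summed to 80.2 CPM in BASCs, 44.8 CPM in AT2 cells, 12.4 CPM in ciliated cells and 15.5 CPM in club cells. A set of 58 genes, those of the mitochondrial genome and the most abundant others, held 43.8% of reads in BASCs, 42.9% in AT2 cells and 45.4% in club cells, against 11.2% in ciliated cells. The remaining genes of ciliated cells therefore take a larger part of the CPM total: under median-of-ratios scaling the median protein-coding gene shifted by -0.44 on the log2 scale in ciliated cells, by 0.09 in BASCs, by 0.13 in AT2 cells and by 0.14 in club cells. Solute carrier genes together held 8606 CPM in BASCs, 9112 CPM in AT2 cells, 14960 CPM in ciliated cells and 8495 CPM in club cells.

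Carriers act at defined sites in lung epithelium. In AT2 cells they supply substrates for surfactant lipid, while chloride and bicarbonate carriers of airway cells set the volume and pH of the surface liquid. Mitochondrial carriers exchange ADP, phosphate and metabolites across the inner membrane, and nucleotide sugar carriers feed glycosylation in the Golgi.

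A member was said to favour a type when that type had its highest level and all other types lay 2-fold or more below it, on log2(CPM + 1). Types within 2-fold of the highest shared the gene. The largest set favoured ciliated cells, with 50 members (34%), beside 29.7% of the 8456 protein-coding genes that reached 20 CPM in any of the 4 types. The next sets were shared by BASCs and AT2 cells (15 members, 10.2%, beside 7.5% of all genes) and by ciliated and club cells (15 members, 10.2%, beside 6.24%). Club cells alone were favoured by 7 members (4.76%, beside 2.61%), BASCs by 3 (2.04%, beside 0.686%) and AT2 cells by 2 (1.36%, beside 1.05%). Levels within 2-fold in all 4 types were seen for 19 members (12.9%), a smaller share than the 22.3% of all genes. Under median-of-ratios scaling, 33 members favoured ciliated cells (22.4%, beside 19.1% of all genes), and under totals without mitochondrial and top genes 31 did (21.1%, beside 18.2%). These shares are close to those of all genes, and their size depended on the scaling.

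**Figure D1:**
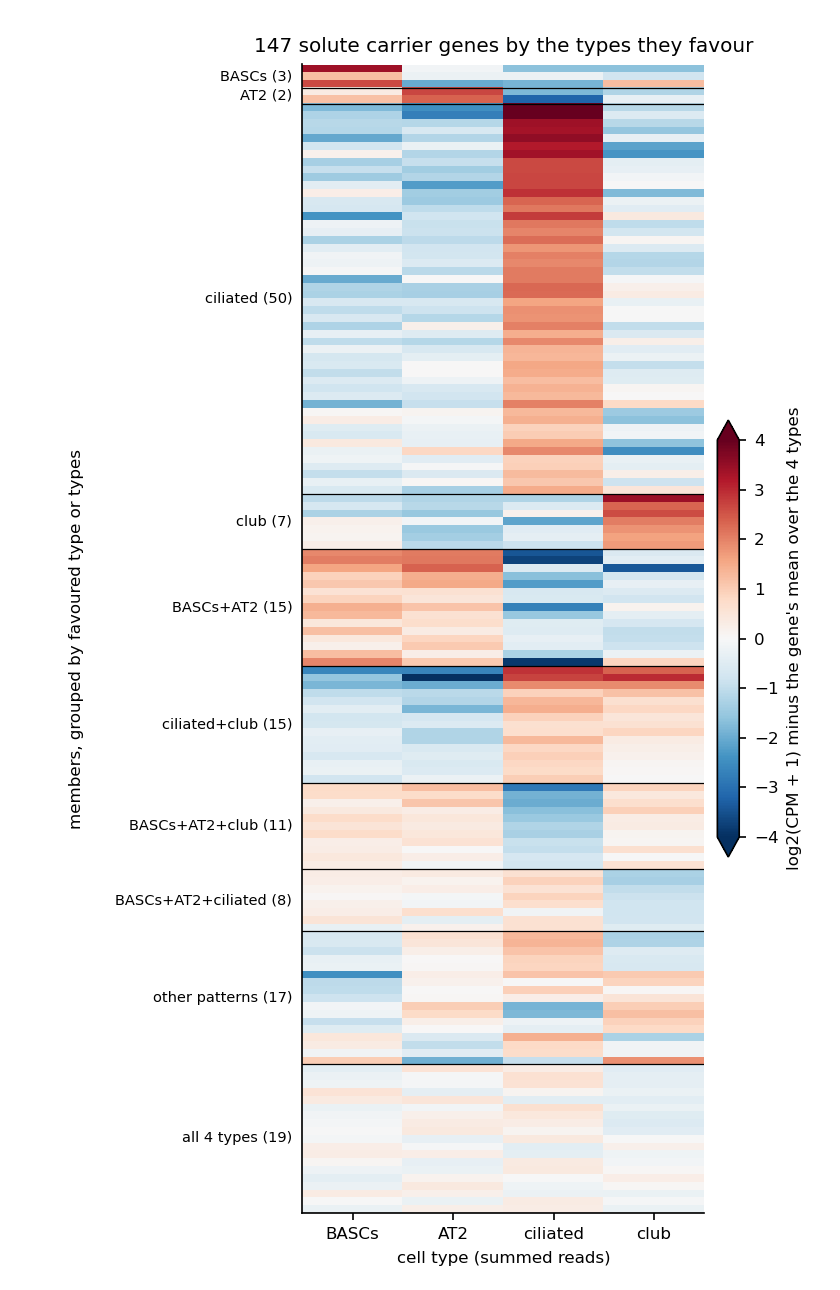
Each row is 1 member and each column a cell type; colour gives log2(CPM + 1) minus the gene's own mean over the 4 types, from blue (lower) to red (higher), with the scale ending at 4 in either direction. The 50 rows favouring ciliated cells form the largest block, followed by 15 rows high in both BASCs and AT2 cells and 15 high in both ciliated and club cells.

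Among the ciliated set the widest gap belonged to Slc1a4, the exchanger of small neutral amino acids also known as ASCT1. Its level was 230.0 CPM in ciliated cells (95% Poisson interval 224 to 236, which covers counting error only), against 0.694 CPM in BASCs, 0.052 CPM in AT2 cells and 1.65 CPM in club cells. It was read in 17 of 24 ciliated cells and in 11 of 97 club cells, where 1 cell held 93.8% of the reads. By plate, Slc1a4 stood at 211.6, 178 and 345 CPM in ciliated cells of plates 2, 3 and 4, and at 0, 0.108 and 9.07 CPM in club cells of the same plates. Groups by plate did not overlap, and the log2 ratio of ciliated to club cells was 6.45.

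Slc4a8, a sodium-driven chloride and bicarbonate exchanger, followed with 152 CPM in ciliated cells, 1.86 CPM in BASCs, 0.0104 CPM in AT2 cells and 3.64 CPM in club cells. Of its reads in club cells, 86.4% came from 1 cell, whose ciliated markers summed to 3513 CPM, the highest of all club cells. In BASCs, 1 cell held 93.4% of the Slc4a8 reads, and its leukocyte markers summed to 2741 CPM. Without the cell holding most of its reads in each type, Slc4a8 had 125.8 CPM in ciliated cells, 0.123 CPM in BASCs and 0.5 CPM in club cells, and still favoured ciliated cells. Slc36a4, an amino acid carrier of the proton-assisted family, had 182 CPM in ciliated cells, 2.72 CPM in BASCs, 5.83 CPM in AT2 cells and 11.3 CPM in club cells. Plate 2, with 5 ciliated cells, gave 18.4 CPM of Slc36a4, against 233 and 123.8 CPM on plates 3 and 4. Slc7a7, the light chain that exports cationic amino acids, had 97.2 CPM in ciliated cells and at most 9.82 CPM in the other types.

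Slc16a10, the carrier of aromatic amino acids, stood at 57.2 CPM in ciliated cells and at most 6.15 CPM elsewhere. The amino acid carriers Slc38a6, Slc7a6, Slc43a3 and Slc36a1 also favoured ciliated cells. Slc38a11 had 21.9 CPM in ciliated cells and was read in 2 of 24 cells.

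The highest ciliated level per kb of exon was that of Slc25a5, the ADP/ATP carrier ANT2. It measured 1523 CPM per kb in ciliated cells, against 334.6 in BASCs, 374.5 in AT2 cells and 618.7 in club cells, and led all members in each type. Reads of near-identical copies could be split or lost for this gene. Slc25a17, a peroxisomal carrier of CoA, FAD and NAD that belongs to the mitochondrial carrier family by sequence, came second there with 313.7 CPM per kb. In CPM it had 893 in ciliated cells, 50.8 in BASCs and 60.6 in AT2 cells, and every ciliated cell (24 of 24) had a read of it. Slc25a17 lay at 680.2, 910.4 and 923 CPM on the 3 plates of ciliated cells, against 85.8 to 143.3 CPM on those of club cells. The other mitochondrial carriers of the set, Slc25a14, Slc25a18, Slc25a32, Slc25a38, Slc25a44 and Slc25a47, had maxima of 23.2 to 56.6 CPM.

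Vitamin, metal and sugar carriers were part of the same set. Slc23a2, which takes up ascorbate with sodium, had 676 CPM in ciliated cells, 59.3 CPM in BASCs, 56.1 CPM in AT2 cells and 159.8 CPM in club cells. Slc39a4, the zinc importer ZIP4, had 512 CPM in ciliated cells, 87.5 CPM in AT2 cells and 101.9 CPM in club cells, and BASCs had 124.4 and 91.7 CPM on their 2 plates. Slc2a1, the glucose carrier GLUT1, had 175 CPM in ciliated cells, 21.2 CPM in BASCs, 11.7 CPM in AT2 cells and 28.5 CPM in club cells. For all 3 genes every ciliated plate lay above every plate of the other types.

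Slc35e3, an orphan of the nucleotide sugar carrier family, and Slc35a2, the Golgi carrier of UDP-galactose, had 150.1 and 150.4 CPM in ciliated cells. In the other types Slc35e3 had 9.15 CPM in BASCs, 13 CPM in AT2 cells and 2.82 CPM in club cells. The other members of that family favouring ciliated cells were Slc35b3, Slc35b4, Slc35c2, Slc35d1, Slc35d2 and Slc35d3. Of the Slc35d3 reads of ciliated cells, 99.8% came from 1 cell, and without it that type had 0.0475 CPM and was not favoured. For Slc35d2, 60.6% came from 1 cell, without which ciliated cells had 17 CPM.

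The ion carriers were Slc12a7, a potassium and chloride cotransporter with 121.6 CPM in ciliated cells, and Slc26a2, Slc4a3 and the scaffold Slc9a3r1. Slc9a3r1 is kept by its symbol but is no carrier: it anchors transporters below the apical membrane, and had 159.5 CPM in ciliated cells, 33.2 CPM in BASCs, 33.5 CPM in AT2 cells and 42.2 CPM in club cells. The set was completed by Slc16a3 and Slc16a4 (monocarboxylates), Slc2a12 and Slc37a3 (sugars), Slc30a4, Slc39a9 and Slc39a11 (metals), Slc52a2 and Slc52a3 (riboflavin), Slc44a3 and Slc44a4 (choline family), Slc18a1, Slc18a2 and Slc18b1 (vesicular amine family), Slc27a1 (fatty acids), Slc6a8 (creatine) and Slco3a1 (organic anions).

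Several of these rest on few of the 24 ciliated cells. In 10 of 50 members a single cell held 50% or more of the reads, and Slc52a2 was read in 1 ciliated cell. When the cell with most reads of a gene was left out of each type, an alternative added after the data were seen, 34 of the 50 stayed in the set and 35 still reached 20 CPM. Plates of the ciliated set did not overlap with those of the other types for 26 of 50 members (beside 57.5% of all genes favouring ciliated cells). In 21 of 50 the favoured type was the same in all 13 alternatives that kept the members and the fold; these include Slc1a4, Slc4a8, Slc36a4, Slc25a17, Slc23a2, Slc39a4, Slc2a1, Slc35e3, Slc35a2 and Slc7a7.

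**Figure D2:**
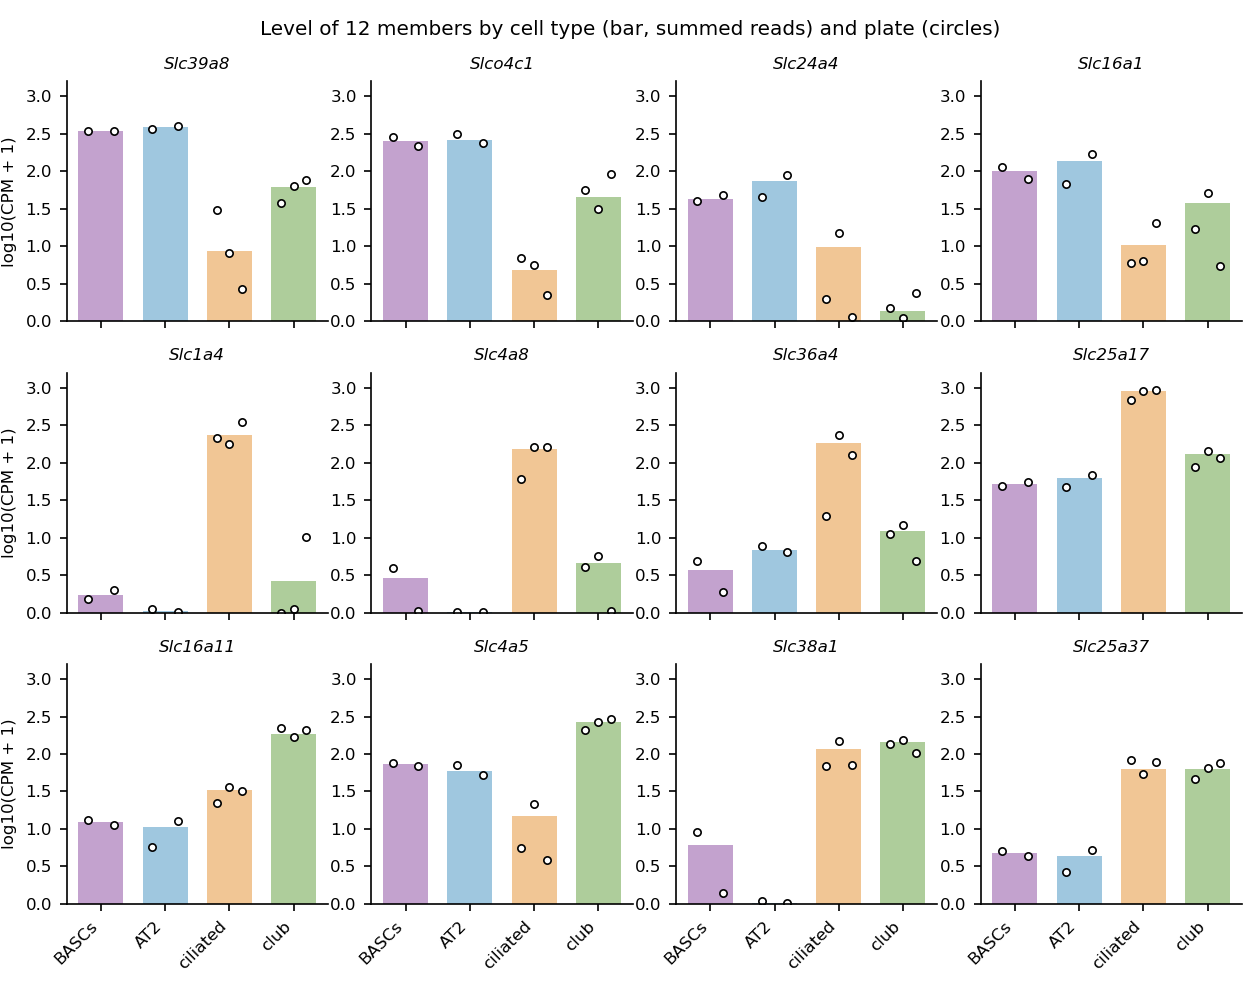
Bars give log10(CPM + 1) of the summed reads of each type and open circles the same on each plate with 5 or more cells of the type, for 12 members. In the top row BASCs and AT2 cells lead, in the middle row ciliated cells, and in the bottom row club cells, alone for Slc16a11 and Slc4a5 and with ciliated cells for Slc38a1 and Slc25a37.

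The 15 members shared by BASCs and AT2 cells were led by Slc39a8, the zinc and manganese importer ZIP8. It had 345 CPM in BASCs and 390.5 CPM in AT2 cells, against 7.54 CPM in ciliated cells and 60.9 CPM in club cells. By plate it stood at 346 and 344 CPM in BASCs and at 366 and 403 CPM in AT2 cells, against 29.4, 7.08 and 1.71 CPM in ciliated cells and 36.7, 62.8 and 75.5 CPM in club cells. The plates of the 2 higher types did not overlap with those of the 2 lower types. Thinned to 100000 reads a cell, it was read in 87.2% of BASCs and 89.2% of AT2 cells, against 27.8% of ciliated and 47.2% of club cells. The median cell had 217.5 CPM in BASCs, 333.7 CPM in AT2 cells, 1.91 CPM in ciliated cells and 2.85 CPM in club cells. Of the Slc39a8 reads of ciliated cells, 45.8% came from 1 cell, in which AT2 markers summed to 10840 CPM and club markers to 192100 CPM.

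Slco4c1, an organic anion transporter, had 257 CPM in BASCs and 266 CPM in AT2 cells, against 3.77 CPM in ciliated cells and 45.2 CPM in club cells. Slc24a4, a potassium-dependent sodium and calcium exchanger, had 42.4 CPM in BASCs and 73.3 CPM in AT2 cells, against 8.85 CPM in ciliated cells and 0.391 CPM in club cells. Slco2a1, the prostaglandin transporter, had 112.3 CPM in BASCs and 162 CPM in AT2 cells, against 17.9 CPM in ciliated cells, where 1 cell held 96.5% of the reads, and 35.7 CPM in club cells. These 3 genes had each plate of BASCs and AT2 cells above each plate of ciliated and club cells.

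Lactate, copper and chloride carriers were in the same set. Slc16a1, the lactate carrier MCT1, had 100.8 CPM in BASCs and 136.6 CPM in AT2 cells, against 9.4 CPM in ciliated cells and 37.4 CPM in club cells. Slc31a1, the copper importer CTR1, had 342 CPM in BASCs and 464 CPM in AT2 cells, against 205 CPM in ciliated cells and 131.9 CPM in club cells. Slc26a9, an apical chloride transporter, had 197 CPM in BASCs and 120.1 CPM in AT2 cells, against 27 CPM in ciliated cells and 60.6 CPM in club cells.

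Metal carriers made up 5 of the 15 (Slc39a8, Slc31a1, Slc31a2, Slc39a1 and Slc41a1). Others of the 15 were Slc4a2, Slc22a23, Slc1a3 and Slc44a2. Plates did not overlap for 12 of the 15 (beside 64% of all genes of this pattern). Leukocyte markers reached 50 CPM in 79 of all 480 cells. In the 4 types these were 24 BASCs, 25 AT2 cells, 4 ciliated cells and 13 club cells. Without them, 10 of the 15 stayed in the set, and the part of those cells in the result was not tested beyond this.

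BASCs of the other lines, which had no part in the choice of members, gave their own values. In the 38 BASCs of Scgb1a1-TD, Slc39a8 had 413.6 CPM, Slco4c1 366.9 CPM and Slc24a4 50.6 CPM, beside 60.9, 45.2 and 0.391 CPM in the club cells of that line. In the 11 BASCs of Sftpc-TD they had 249.9, 283.9 and 50.4 CPM, beside 390.5, 266 and 73.3 CPM in its AT2 cells. The club and AT2 values here are those that chose the pattern. By plate, BASCs of Scgb1a1-TD had 1.05, 71.9 and 14.2 CPM of Slc24a4 on plates 2, 3 and 4, against 0.525, 0.108 and 1.36 CPM in club cells, so on plate 2 both groups were near 1 CPM or below. Over club cells of BASCs-Tracer, BASCs of that line had log2 ratios of 1.56 for Slc39a8, 3.6 for Slco4c1 and 4.8 for Slc24a4. Slc26a9 (1.61), Slc4a2 (2.3) and Slc22a23 (1.1) were also 2-fold or more higher there. Slc31a1 (0.99), Slc41a1 (0.72), Slc39a1 (0.39), Slc31a2 (0.36), Slco2a1 (0.35) and Slc1a3 (0.08) were less than 2-fold apart. Slc16a1 (-0.64) and Slc44a2 (-1.37) were higher in the club cells.

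Club cells alone were favoured by Slc16a11, Slc4a5, Slco1a5, Slc6a15, Slc7a1, Slc1a1 and Slc25a35, and plates did not overlap for 7 of 7 (beside 74.2% of all genes favouring club cells). Slc16a11, a monocarboxylate carrier of the MCT family, had 182 CPM in club cells, 11.5 CPM in BASCs, 9.46 CPM in AT2 cells and 32.5 CPM in ciliated cells. It was read in 90 of 97 club cells and in 37% of BASCs. Club cells of plates 2, 3 and 4 had 220.3, 166 and 211 CPM of Slc16a11, against 20.9, 34.9 and 31 CPM in ciliated cells of those plates.

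Slc4a5, an electrogenic sodium bicarbonate cotransporter, had 264 CPM in club cells, 72.9 CPM in BASCs, 58 CPM in AT2 cells and 13.8 CPM in ciliated cells. Slco1a5, a rodent organic anion transporter, had 23.6 CPM in club cells and 0.103 CPM in BASCs. It had 0 reads in AT2 cells and in ciliated cells, and a count of 0 allows up to 0.0156 CPM and 0.136 CPM there (3 reads). Slc25a35, an orphan mitochondrial carrier, had 78.6 CPM in club cells, but 1151 bases of its exons overlap those of Rangrf on the opposite strand.

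The club set also held 3 amino acid carriers. Slc1a1, a glutamate and cysteine importer, had 48 CPM in club cells, 16.4 CPM in BASCs, 5.26 CPM in AT2 cells and 11.7 CPM in ciliated cells. Its exons overlap 4430402I18Rik on the opposite strand over 2631 bases. Slc7a1, the cationic amino acid carrier CAT1, had 28.4 CPM in club cells and at most 8.35 CPM elsewhere. Slc6a15, a neutral amino acid carrier, had 28.8 CPM in club cells and at most 3.13 CPM elsewhere. Within BASCs-Tracer, Slc1a1 was higher in BASCs than in club cells, with a log2 ratio of 1.08, against -2.71 within Scgb1a1-TD. Of the club set, Slc25a35 also reversed, with 1.5 in BASCs-Tracer and -1.38 in Scgb1a1-TD. The other members of the club set were higher in club cells of BASCs-Tracer too, with ratios from -1.11 to -2.63.

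Ciliated and club cells shared 15 members, led by Slc16a12, Slc38a1 and Slc25a37. These 3 were chosen after their values were seen, as leaders of the pattern. Slc38a1, the glutamine carrier SNAT1, had 117.2 CPM in ciliated cells and 142.2 CPM in club cells, against 5.16 CPM in BASCs and 0.0416 CPM in AT2 cells. It was read in 80 of 97 club cells, 18 of 24 ciliated cells, 39.1% of BASCs and 5.37% of AT2 cells. Slc16a12, a carrier of creatine, had 47.2 CPM in ciliated cells and 32.4 CPM in club cells, against 0.0657 CPM in BASCs and 0.0312 CPM in AT2 cells. Slc25a37, the iron importer mitoferrin of mitochondria, had 62.8 CPM in ciliated cells and 63 CPM in club cells, against 3.82 CPM in BASCs and 3.35 CPM in AT2 cells.

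In BASCs of Scgb1a1-TD, sorted in the same line as the club cells, Slc38a1 had 0.403 CPM, Slc16a12 0.0252 CPM and Slc25a37 0.0503 CPM. All 3 genes were thus at or under 0.403 CPM in BASCs of a line whose club cells had 32.4 CPM or more. The log2 ratios of BASCs to club cells were -6.67, -5.02 and -5.93 for Slc38a1, Slc16a12 and Slc25a37 in this line. Within BASCs-Tracer they were nearer, at -2.3, -1.56 and -2.18. The remaining 12 are given with the log2 ratio of BASCs to club cells of Scgb1a1-TD. Slc23a1 (-2.29), Slc45a4 (-2.08), Slc35f5 (-2.015), Slc35f6 (-1.67), Slc4a4 (-1.16) and Slc25a36 (-1.14) were 2-fold or more lower in BASCs. Slc39a10 (-0.93), Slc25a13 (-0.91), Slc7a2 (-0.575), Slc10a7 (-0.24), Slc35b1 (-0.18) and Slc10a3 (-0.16) were less than 2-fold apart. Plates did not overlap for 4 of 15 members (beside 25.2% of all genes of this pattern).

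**Figure D3:**
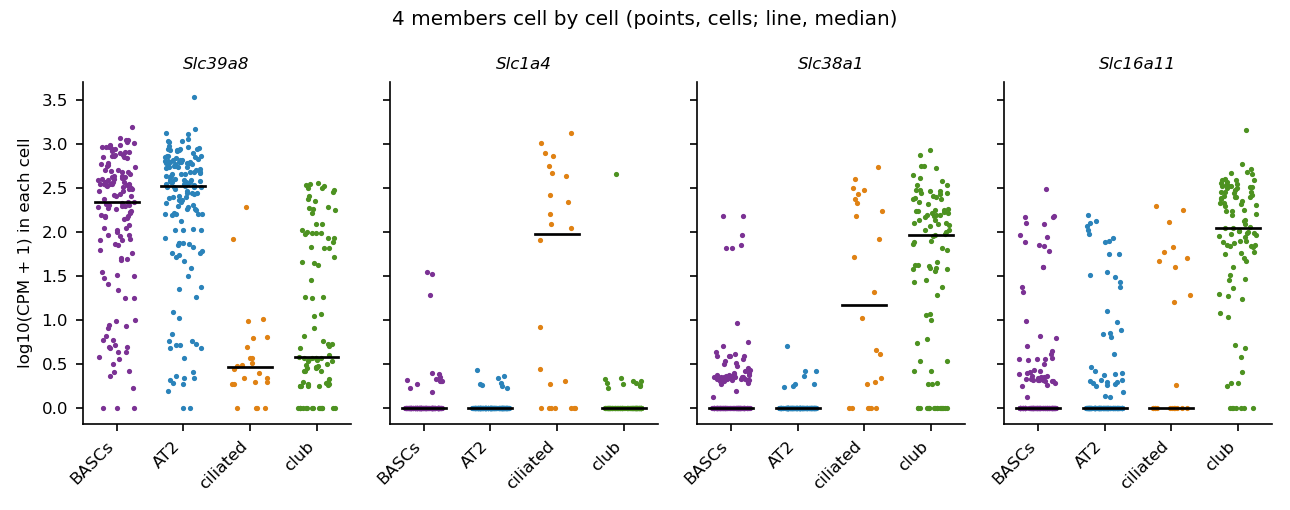
Each point is 1 cell, the y axis gives its log10(CPM + 1), and black lines are medians over the cells of each type. Slc39a8 is high in most BASCs and AT2 cells, Slc1a4 in ciliated cells, Slc38a1 in ciliated and club cells, and Slc16a11 in club cells, while the median is 0 CPM in 3 of 4 types for Slc1a4 and Slc16a11.

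BASCs alone were favoured by Slc26a4, Slc35e4 and Slc7a11, with maxima of 24.7 to 33.7 CPM. Slc26a4, the anion exchanger pendrin, had 33.7 CPM in BASCs, 2.01 CPM in AT2 cells, 0.0454 CPM in ciliated cells and 0.0617 CPM in club cells. It was read in 34 BASCs (24.6%), and 1 of these cells held 39% of the reads. Plate 2 gave 76.7 CPM and plate 1 gave 7.66 CPM in BASCs, both above every plate of the other types. In BASCs of Scgb1a1-TD it had 78.5 CPM on plate 2, 18 CPM on plate 3 and 0 CPM on plate 4. The 11 BASCs of Sftpc-TD had 0 reads of it, which allows up to 0.239 CPM, and the 6 AT2 cells of BASCs-Tracer had 20.4 CPM, less than 2-fold below the BASCs of that line. Ionocyte markers Foxi1 and Ascl3 had 0 reads both in the 34 BASCs with a Slc26a4 read and in the remaining BASCs. The third ionocyte marker, Cftr, was read in 15 of the 34 (95.5 CPM) and in 62 of the remaining BASCs (51.2 CPM).

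Slc7a11, the cystine and glutamate exchanger, had 24.7 CPM in BASCs, 0.0208 CPM in AT2 cells, 0.136 CPM in ciliated cells and 8.84 CPM in club cells. BASCs of Scgb1a1-TD had 0.0503 CPM of it. Within BASCs-Tracer its club cells had 158.1 CPM, above the BASCs, with 0.2 CPM on plate 1 (7 cells) and 241.7 CPM on plate 2 (8 cells). The place of Slc7a11 with BASCs thus rests on setting BASCs of BASCs-Tracer beside club cells of Scgb1a1-TD. Slc35e4, an orphan of the nucleotide sugar carrier family, had 29.7 CPM in BASCs and at most 10.3 CPM elsewhere, with 48% of its reads in BASCs from 1 cell.

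AT2 cells alone were favoured by Slc10a6 and Slc7a5. Slc10a6, a carrier of sulfated steroids, had 103.4 CPM in AT2 cells, 44.5 CPM in BASCs, 1.18 CPM in ciliated cells and 15 CPM in club cells. By plate it had 86.6 and 111.9 CPM in AT2 cells, against 51.6 and 32.7 CPM in BASCs. Slc7a5, the large neutral amino acid carrier LAT1, had 21.2 CPM in AT2 cells and 3.42 CPM in BASCs. Its partner Slc3a2, the heavy chain shared by several amino acid carriers, was within 2-fold in all 4 types, with 372 CPM in BASCs, 301 CPM in AT2 cells, 229 CPM in ciliated cells and 359.8 CPM in club cells.

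A further 11 members had their levels within 2-fold in BASCs, AT2 cells and club cells and were lower in ciliated cells. Slc12a2, the sodium, potassium and chloride cotransporter NKCC1, had 294 CPM in BASCs, 298 CPM in AT2 cells and 239.7 CPM in club cells, against 47.4 CPM in ciliated cells. Slc5a1, the sodium-coupled glucose carrier SGLT1, had 15.9 CPM in BASCs, 22.4 CPM in AT2 cells, 17.6 CPM in club cells and 0.363 CPM in ciliated cells. Slc1a5, the glutamine carrier ASCT2, had 312 CPM in BASCs, 228 CPM in AT2 cells, 377 CPM in club cells and 152 CPM in ciliated cells. The others were Slc38a4, Slc4a7, Slc44a1, Slc30a7, Slc25a51, Slc25a16, Slc35a3 and Slc43a2.

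Lower in club cells were 8 members shared by BASCs, AT2 cells and ciliated cells, among them Slc15a2, Slc16a7, Slc33a1, Slc38a10, Slc37a1, Slc17a5 and Slc6a14. Slc15a2, the peptide carrier PEPT2, had 20.7 CPM per kb in ciliated cells, 16.99 in BASCs and 17.67 in AT2 cells, and 5.58 CPM per kb in club cells. AT2 and ciliated cells shared Slc6a6, Slc5a3, Slc35g2, Slc25a4 and Slc30a5. Slc6a6, the taurine carrier, had 273 CPM in AT2 cells and 445 CPM in ciliated cells, beside 113.4 CPM in BASCs and 73.8 CPM in club cells. Slc46a3, Slc25a46, Slc25a29 and Slc35a4 were shared by AT2, ciliated and club cells, though 99.6% of the Slc25a29 reads of ciliated cells came from 1 cell, without which that type had 0.0482 CPM. AT2 and club cells shared Slc20a2, Slc22a18 and Slc48a1. Slc25a12 and Slc11a2 were shared by BASCs, ciliated and club cells, Slc20a1 by BASCs and ciliated cells, and Slc6a20a by BASCs and club cells.

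The 19 members within 2-fold in all 4 types held 8 mitochondrial carriers: Slc25a1, Slc25a3, Slc25a10, Slc25a11, Slc25a20, Slc25a23, Slc25a25 and Slc25a39. Slc25a3, the phosphate carrier of mitochondria, had 303 CPM in BASCs, 347 CPM in AT2 cells, 546 CPM in ciliated cells and 277 CPM in club cells. The others were Slc3a2, Slc38a2, Slc7a4, Slc35a1, Slc35a5, Slc35b2, Slc22a5, Slc22a15, Slc30a9, Slc50a1 and the scaffold Slc9a3r2.

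**Figure D4:**
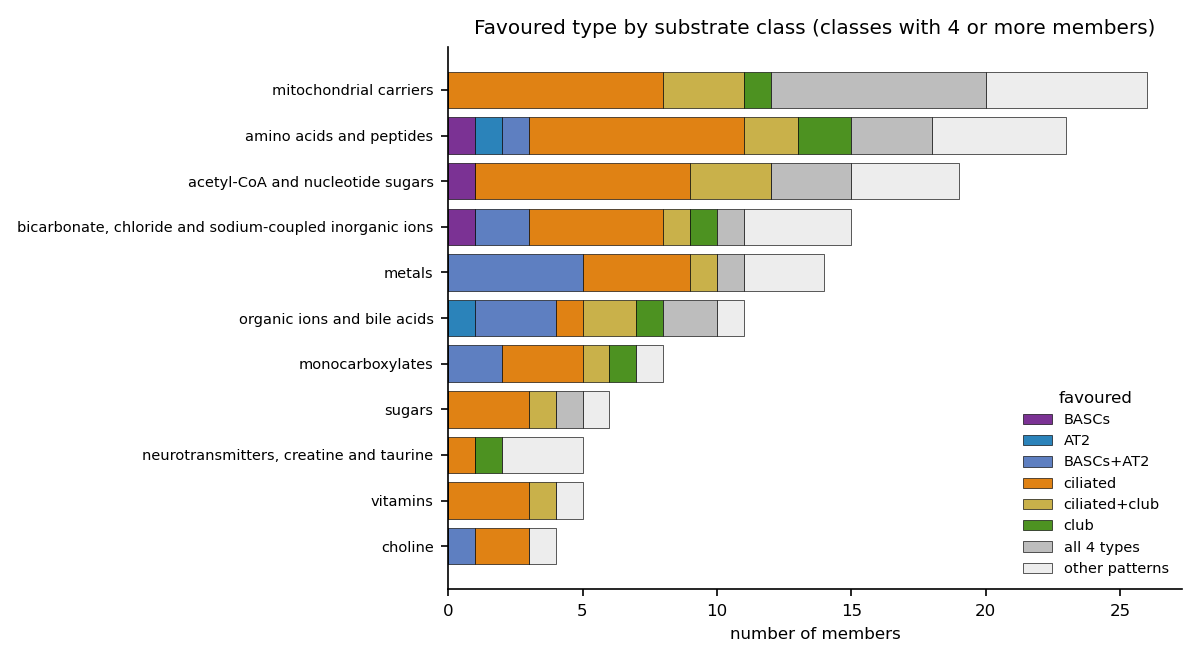
Bars count members of each substrate class by the types they favour, for classes with 4 or more members; classes follow the family number in the symbol. Ciliated cells take 8 of 26 mitochondrial carriers, 8 of 23 amino acid and peptide carriers and 8 of 19 acetyl-CoA and nucleotide sugar carriers, and BASCs with AT2 cells take 5 of 14 metal carriers. Over all members these 2 patterns take 34% and 10.2%, and over all protein-coding genes at 20 CPM 29.7% and 7.5%.

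By substrate class, the 26 carriers of the mitochondrial family, the peroxisomal Slc25a17 included, summed to 2086 CPM in BASCs, 2266 CPM in AT2 cells, 5817 CPM in ciliated cells and 2670 CPM in club cells. Of these, 17 were highest in ciliated cells, beside 59.2% of all members. The 19 carriers of acetyl-CoA and nucleotide sugars summed to 378.2 CPM in BASCs, 400.3 CPM in AT2 cells, 1103 CPM in ciliated cells and 473.6 CPM in club cells, and 15 were highest in ciliated cells. The 5 vitamin carriers were all highest in ciliated cells, but for Slc52a2 all reads there came from 1 cell. The type with the highest level was not counted over all protein-coding genes, so these counts show no preference of a class.

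The 11 organic ion and bile acid carriers summed to 640.3 CPM in BASCs and 757.7 CPM in AT2 cells, against 303 CPM in ciliated cells and 323.2 CPM in club cells. By gene, 4 of the 11 were highest in AT2 cells, 4 in ciliated cells, 2 in club cells and 1 in BASCs, and Slco4c1 and Slco2a1 held much of the sum in BASCs and AT2 cells. The 14 metal carriers summed to 1134 CPM in BASCs, 1248 CPM in AT2 cells, 1188 CPM in ciliated cells and 599 CPM in club cells. The 15 members classed with bicarbonate, chloride and sodium-coupled inorganic ions summed to between 864.3 and 1001 CPM in each of the 4 types. These 15 include the scaffolds Slc9a3r1 and Slc9a3r2, which are no carriers, so the sums are not those of carriers alone.

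**Figure D5:**
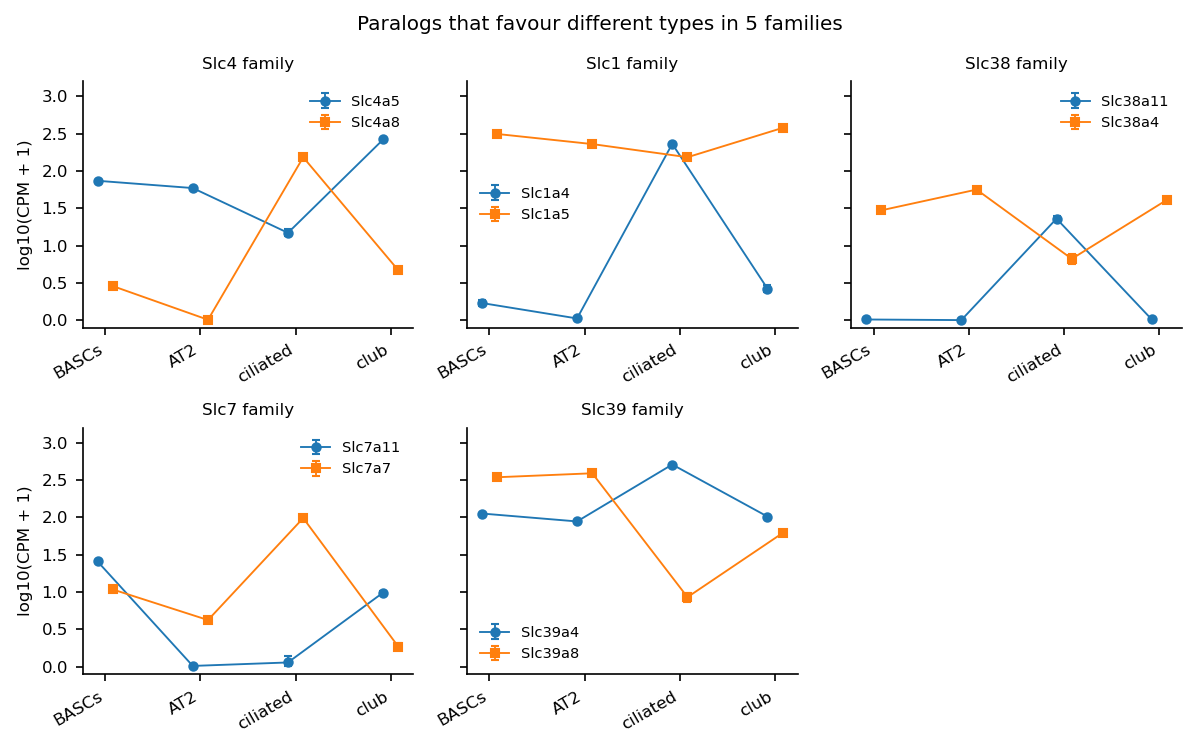
Each of 5 panels shows 2 genes of 1 family, with log10(CPM + 1) by cell type and 95% Poisson intervals, most of them smaller than the points; heights are not compared between genes, whose lengths differ. In each family the 2 genes change in opposite directions between ciliated cells and BASCs.

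The pairs plotted by family were chosen for the largest gap between 2 members, so that they differ was set by the choice. In the Slc4 family Slc4a8 favoured ciliated cells and Slc4a5 club cells. In the Slc39 family Slc39a4 favoured ciliated cells while Slc39a8 was shared by BASCs and AT2 cells. Slc16a3, the lactate exporter MCT4, had 36.2 CPM in ciliated cells, 4.8 CPM in BASCs, 0.848 CPM in AT2 cells and 0.422 CPM in club cells, while Slc16a11 of the same family favoured club cells. In the Slc1 family Slc1a4 favoured ciliated cells and Slc1a5 was lowest there.

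Members 2-fold or more apart were counted in pairs of groups. In BASCs against club cells, 34 members were higher (23.1%, beside 15.2% of all genes) and 35 lower (23.8%, beside 13.8%). The median log2 ratio there was 0.00 over members and 0.01 over all genes. In BASCs against AT2 cells, 16 were higher (10.9%, beside 7.62%) and 14 lower (9.52%, beside 6.56%). In AT2 cells against club cells, 28 were higher (19%, beside 16.3%) and 33 lower (22.4%, beside 14.8%). In ciliated against club cells, 64 were higher (43.5%, beside 41.5%) and 30 lower (20.4%, beside 12.9%). The median log2 ratio there was 0.86 over members and 0.71 over all genes. Shares of members higher in ciliated or in AT2 cells than in club cells, and both shares of BASCs against AT2 cells, were close to the background. Whether any of these shares differs from that of all genes was not tested.

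Pairs within 1 line used smaller groups. In BASCs against club cells of Scgb1a1-TD, 20 members were higher (13.6%, beside 12.7% of all genes) and 46 lower (31.3%, beside 23.4%). In BASCs against club cells of BASCs-Tracer, 44 were higher (29.9%, beside 29.6%) and 37 lower (25.2%, beside 16.1%). In BASCs against AT2 cells of BASCs-Tracer, 60 were higher (40.8%, beside 38.5%) and 26 lower (17.7%, beside 15.3%). In those of Sftpc-TD, 20 were higher (13.6%, beside 10.1%) and 54 lower (36.7%, beside 33%). These pairs share groups with those before, so their counts are not independent of them.

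The upstream windows of members were searched for the letters of 4 motifs known from ciliated, airway and alveolar cells, in the 250 bases before RefSeq starts (GRCm38.p6). Both strands were read, and 34 members had no window. The X-box, bound by RFX factors of ciliated cells and the same on both strands, was present in 3 of 39 members favouring ciliated cells (7.69%), 5 of all members with a window (4.42%), 95 of 2013 protein-coding genes favouring ciliated cells (4.72%) and 489 of 27025 genes (1.81%). The forkhead letters TGTTTAC were in 0 of 39 members favouring ciliated cells. They were in 3.54% of all genes and 2.98% of protein-coding genes favouring ciliated cells. Of 14 members shared by BASCs and AT2 cells, 1 held the NKX2-1 core CTCAAG. That core was in 15.2% of all genes and 12.9% of protein-coding genes of the same pattern. It was also in 8 of 39 members favouring ciliated cells (20.5%) and 2 of 5 favouring club cells (40%). The C/EBP letters TTGCNNAA were in 0 of the 14, beside 10.8% of all genes and 11.2% of protein-coding genes of the same pattern. A match is a run of letters and no shown site. X-box matches outside the ciliated set were those of Slc1a1, which favoured club cells, and Slc30a9, within 2-fold in all 4 types. The 3 X-box matches of members favouring ciliated cells are printed, 60 bases each with the match in capitals, because these members share both the pattern and the match. They lie at chr15:100761653-100761712 on the plus strand (Slc4a8), chr8:71569537-71569596 on the plus strand (Slc27a1, 1 of 3 windows) and chr6:39377708-39377767 on the minus strand (Slc37a3, 1 of 2 windows). The match starts 71, 16 and 24 bases before the start of these genes.
Slc4a8: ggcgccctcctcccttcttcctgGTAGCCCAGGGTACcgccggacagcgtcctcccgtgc
Slc27a1: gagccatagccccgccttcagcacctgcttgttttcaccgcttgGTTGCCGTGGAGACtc
Slc37a3: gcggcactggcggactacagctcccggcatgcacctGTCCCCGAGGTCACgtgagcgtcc

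The 250 bases before the starts of the leaders of 2 patterns are shown for contrast, with any match to the 4 motifs in capitals. That of Slc1a4 lies at chr11:20332714-20332963 on the minus strand and holds 1 match, to the NKX2-1 core. That of Slc39a8, 1 of 2 windows of the gene, lies at chr3:135825029-135825278 on the plus strand and holds none.
Slc1a4: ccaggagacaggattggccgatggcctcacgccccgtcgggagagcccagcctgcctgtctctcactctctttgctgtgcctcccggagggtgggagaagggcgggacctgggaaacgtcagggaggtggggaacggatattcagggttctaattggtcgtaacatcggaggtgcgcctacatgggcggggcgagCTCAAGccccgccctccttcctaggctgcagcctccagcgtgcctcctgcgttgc
Slc39a8: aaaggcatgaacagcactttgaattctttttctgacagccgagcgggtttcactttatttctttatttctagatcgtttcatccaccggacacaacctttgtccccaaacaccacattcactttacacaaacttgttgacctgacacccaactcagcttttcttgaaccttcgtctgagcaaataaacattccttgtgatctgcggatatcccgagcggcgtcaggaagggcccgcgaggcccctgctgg

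Just inside the limit of 20 CPM were Slc25a13 (20.2 CPM in ciliated cells), Slc52a2 (20.3 CPM in ciliated cells) and Slc25a29 (20.8 CPM in club cells). Just outside were Slc9a8 (19.9 CPM in BASCs), Slc35e1 (19.9 CPM in BASCs) and Slc7a6os (19.5 CPM in AT2 cells), the last of which is no carrier. Exons of 44 members share bases with another annotated gene, 20 of them with a protein-coding one, and the strand setting of the counting is not given in the sources used here. Over the shared bases, reads of such members and of the overlapping gene cannot be told apart here. This limit does not reach reads that lie wholly over the other exon bases of a member. How many reads lie over shared bases was not tested. Examples are Slc7a7, Slc2a1, Slco2a1, Slc4a2, Slc25a37, Slc6a6 and Slc48a1 besides Slc1a1 and Slc25a35.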

How the data were processed

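The deposited table holds whole-number read counts per gene and cell, not normalized, with 53379 genes and no molecular identifiers. The submitters' processing notes name HISAT2, HTSeq and the build GRCm38; tool versions, annotation release and strand setting: not given in the sources used here. Per the labels' protocols, lungs were digested with enzymes, single cells were sorted, and PCR-amplified cDNA was made into Nextera XT libraries. The header names no gene column, so its name k was read as count column k, and 0 columns were left unmatched. Symbols, exon lengths and positions came from GENCODE M21, which matched 53274 identifiers; unmatched rows took 0.00513% of reads.

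Here the counts were summed over the cells of a labelled type and divided by all gene-assigned reads (CPM), so deeper cells weigh more. Ratios are on log2(CPM + 1), which understates folds of low genes. Depth was 492096494 reads in all. Poisson intervals are at the 95% level and cover counting error only, since PCR reads are not independent molecules. Cells of a line are not replicates, and no test was run. Plates with 5 or more cells of a type gave values by plate. Members and lists were chosen with earlier results of these data known. Members were named by these rules: up to 8 per favoured type with the largest ratio to the next type, 50 CPM or more and a read in 25% of cells; the 8 highest per kb of merged exon in each type; the 2 highest per kb in each substrate class; the 3 on either side of the limit; and the largest gaps between paralogs. Other members are named as parts of a counted set, or as leaders of a shared pattern chosen after their values were seen. Some members are counted in their sets but are not reported singly here. Doublets were not called. Alternatives were thresholds of 10 and 50 CPM, 10 CPM added, a 4-fold limit, other scalings, cells with 100000 reads and 2000 genes, cells without leukocyte markers, each plate left out, and BASCs of Scgb1a1-TD. The classification was run on simulated Poisson counts of summed reads, without variation between cells. That simulation cannot show how far reads held by single cells change the favoured type. Python 3.11.15 with numpy 2.4.6, pandas 2.3.3, scipy 1.17.1 and matplotlib 3.10.9 was used.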

Additional observations from a re-analysis of the deposited data

Results flagged for a closer look

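Some named members moved 2-fold or more in opposite directions in 2 lines under the same contrast, with all cells and also without the cell holding most reads of the gene. The difference between the lines was not tested, since each line is 1 sample, and the groups of BASCs-Tracer club cells (15), BASCs-Tracer AT2 cells (6) and Sftpc-TD BASCs (11) are small. Values are log2 ratios of CPM + 1. All those listed were positive in BASCs-Tracer and negative in the other line, and all protein-coding genes at 20 CPM leaned the same way. The median over all genes for BASCs over club cells was 0.17 in BASCs-Tracer and -0.16 in Scgb1a1-TD. For BASCs over AT2 cells it was 0.38 in BASCs-Tracer and -0.34 in Sftpc-TD. Moves in opposite directions were not counted over all genes, so they show no trait of these members.

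For BASCs over club cells, Slc1a5 had 1.11 in BASCs-Tracer and -1.73 in Scgb1a1-TD. It had 312.5 CPM in BASCs and 143.8 CPM in club cells of BASCs-Tracer, and 377.4 CPM in club cells of Scgb1a1-TD. Slc25a35 had 1.50 in BASCs-Tracer and -1.38 in Scgb1a1-TD. Slc20a2 had 3.13 and -2.57, and Slc18a2 had 2.41 and -2.85, in the same order of lines. Slc18a2 had 0 reads in club cells of BASCs-Tracer, which allows up to 0.207 CPM. Of all protein-coding genes at 20 CPM, 29.6% were 2-fold or more higher in BASCs than in club cells of BASCs-Tracer. In Scgb1a1-TD, 23.4% were 2-fold or more lower in BASCs.

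For BASCs over AT2 cells, Slc10a6 had 4.13 in BASCs-Tracer and -4.88 in Sftpc-TD. Its levels were 44.5 CPM in BASCs and 1.60 CPM in AT2 cells of BASCs-Tracer, while Sftpc-TD had 2.55 CPM in its BASCs and 103.4 CPM in its AT2 cells. In that order of lines Slc5a1 had 3.82 and -4.33, Slc2a1 had 3.21 and -1.60, Slc44a3 had 2.12 and -4.45, Slc50a1 had 1.34 and -1.58, Slc25a29 had 1.52 and -3.61, and Slc18a2 had 2.15 and -1.91. Of all protein-coding genes at 20 CPM, 38.5% were 2-fold or more higher in BASCs than in AT2 cells of BASCs-Tracer. In Sftpc-TD, 33% were 2-fold or more lower in BASCs.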

How the results depend on the processing

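Over the counts above, 197 of 250 recomputed values lay within 1.5 times of the value given, and 53 did not. Of 676 recomputed log2 ratios of named members, 585 moved by less than that factor, 87 by more, and 4 reversed. Some could not move: leaving out plate 1 touched only BASCs-Tracer and plate 5 only Sftpc-TD, and BASCs of Scgb1a1-TD replaced only the BASCs. Recomputed values of pairs without a touched group stayed the same by construction, and are within the 197 and the 585. How many were of this kind was not counted. At a threshold of 10 CPM, BASCs were favoured by 6 members (main 3) and AT2 cells by 6 (2), 22 were lower in BASCs than in AT2 cells (14), 44 higher in AT2 than in club cells (28) and 48 lower in ciliated than in club cells (30). At 50 CPM, 87 members were left, favouring BASCs in 0, AT2 cells in 1, ciliated cells in 27, club cells in 3 and both ciliated and club cells in 9. There, 20 were lower in BASCs than in club cells, 5 higher and 7 lower in BASCs than in AT2 cells, 17 lower in AT2 than in club cells, and 37 higher and 17 lower in ciliated than in club cells. With 10 CPM added, BASCs were favoured by 1, 18 were higher in BASCs than in club cells, 3 higher and 5 lower in BASCs than in AT2 cells, and 15 higher and 19 lower in AT2 than in club cells. With a 4-fold limit, BASCs were favoured by 1, AT2 cells by 1, ciliated cells by 24, club cells by 3 and BASCs with AT2 cells by 5, and 61 were shared by all 4 types. There, 9 were higher and 10 lower in BASCs than in club cells, 4 higher and 3 lower in BASCs than in AT2 cells, 7 higher and 17 lower in AT2 than in club cells, and 36 higher and 19 lower in ciliated than in club cells.

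Ciliated cells were favoured by 33 members under median-of-ratios scaling and by 31 with totals without mitochondrial and top genes, fewer by construction, since both lower the level of ciliated cells relative to the other types. BASCs were favoured by 1 with the mean over cells and by 5 without cells with leukocyte markers. With plates left out, 40 members were lower in BASCs than in AT2 cells without plate 1 and 8 without plate 2, 46 lower in ciliated than in club cells without plate 3, and 26 higher in BASCs than in AT2 cells without plate 5. AT2 cells were favoured by 1 without plate 2, by 4 without plate 4 and by 1 without plate 5. With BASCs of Scgb1a1-TD, BASCs were favoured by 1, AT2 cells by 4 and all 4 types by 11, 20 were higher in BASCs than in club cells, and 37 lower in BASCs than in AT2 cells.

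The reversed ratios were those of Slc18a2 (-0.46) and Slc52a2 (-3.94) in ciliated over club cells without plate 3, Slc52a2 (-2.17) without the cell with most reads, and Slc7a11 (-3.23) in BASCs over club cells with BASCs of Scgb1a1-TD. Apart from the scalings, the cause was not tested. Ciliated cells were 24, so single cells weigh heavily in that type. No paired analysis was possible because no test was run and the labels pair no cells between groups.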
